A study of Homo sapiens with 2 samples.

Results

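The BCL2 family decides whether a cell under stress keeps its mitochondria sealed. The 10 genes described here are the survival genes BCL2L1, MCL1 and BCL2A1, the pore-forming effectors BAX and BAK1, and the BH3-only death genes BIK, BID, BBC3, PMAIP1 and BCL2L11. They were taken by gene name from the deposited expression tables, where each name has 1 row, and they are 10 of the 20263 genes listed. The cells were Cal-27, an established squamous carcinoma line of tongue origin, grown in DMEM with serum. The control library carried a stably transduced scrambled shRNA (sh-scramble), and the other library carried a stably transduced shRNA against HIPK2 (sh-HIPK2 in the vector GV-248). HIPK2 is a nuclear kinase that acts in the response to DNA damage. Whether each culture was a clone or a mixed population, and for how long it had been grown, the sources used here do not give.

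In this family the effectors BAX and BAK1 sit in or move to the outer mitochondrial membrane and, once active, form pores that release cytochrome c and start the caspases. The survival proteins bind the effectors and the BH3-only proteins and hold them back. The BH3-only proteins are sensors of damage: they switch on the effectors directly or occupy the survival proteins. BBC3 (PUMA) and PMAIP1 (NOXA) are induced by DNA damage, BCL2A1 is a textbook NF-kB target, and squamous carcinoma cells are known to lean on BCL2L1 (BCL-XL) and MCL1.

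What ties the family together is the BH3 motif, a short helix through which the proteins bind each other. Its core was searched in the coding sequence of 1 GENCODE 29 transcript per gene, read in frame on the coding strand, as 6 codons: a leucine codon, 3 codons of any kind, a glycine codon and an aspartate codon. Of the 10 genes, 8 held this pattern, each at 1 place, against 13.68% of 19666 coding genes searched the same way. BBC3 held it only with an alanine codon in place of the glycine codon, a form that, counted with the first, was present in 24.72% of genes. BCL2A1 held neither form in the transcript searched. A match is a description of letters, and no match says only that this pattern was not in that sequence. The stretches below show the shared core in the BH3-only gene with the lowest count ratio (BIK), in the effectors, in the main survival genes, and in the alanine form of BBC3. Capitals mark the 6 codons, and the positions are on GRCh38: BIK at chr22:43127704-43127745 (plus strand), BAX at chr19:48955775-48955816 (plus strand), BAK1 at chr6:33575387-33575428 (minus strand), BCL2L1 at chr20:31721922-31721963 (minus strand), MCL1 at chr1:150578865-150578906 (minus strand) and BBC3 at chr19:47226579-47226620 (minus strand).
BIK: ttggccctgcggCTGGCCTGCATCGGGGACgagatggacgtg
BAX: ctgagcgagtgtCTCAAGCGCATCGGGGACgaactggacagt
BAK1: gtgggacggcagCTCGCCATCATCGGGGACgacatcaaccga
BCL2L1: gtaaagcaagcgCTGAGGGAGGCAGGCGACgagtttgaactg
MCL1: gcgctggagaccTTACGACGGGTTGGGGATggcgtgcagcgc
BBC3: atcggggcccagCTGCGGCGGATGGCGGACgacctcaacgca

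Each group held 1 library, with total counts of 28064923 (control) and 26450251. With nothing to measure the spread between cultures, no test was possible, and every difference below is one between a pair of libraries. Where values come in pairs the control is given first. Bracketed ranges are 95% counting intervals, exact except for ratios between members, and they cover counting error only. HIPK2 itself (chromosome 7, 139561570 to 139777778, minus strand) had 110 and 218 counts, a level 2.01 times higher (1.59 to 2.55) in CPM, counts scaled to the size of the library, while the authors' deposited TPM went from 1.63 to 0.873. The target gene thus went against its label in counts and with it in TPM, so that library is named below by its label, as the library labelled HIPK2 shRNA. The cells carried squamous markers: all 9 listed were expressed, led by KRT5 at 2766 and 2554 CPM, and 7 of the 9 had log2 ratios below 0 (median -0.31). KRT14, a basal keratin, went from 11.6 to 1.63 CPM and CDH1, the epithelial cadherin, from 184 to 87.3 CPM. KRT5 and KRT6A differed little, at ratios of 0.923 and 0.929. The 2 markers above 0 were DSG3, at a ratio of 1.37 (1.07 to 1.75), and TP63, at 1.04 (0.975 to 1.12). Most squamous markers thus differed in the same direction as the family described below, and their part in its values was not tested. The leukocyte markers PTPRC and CD3E, the endothelial markers PECAM1 and KDR and the fibroblast marker DCN had 0 counts in both libraries. The limit set for a gene at 0, 3 counts, is 0.109 CPM (control) and 0.111 CPM. The upper ends of the exact 95% intervals are 0.134 and 0.136 CPM. Other genes of these lists were expressed: the endothelial cadherin CDH5 at 55.2 and 27.3 CPM, the leukocyte markers CD68 at 23.1 and 20.6 CPM and CD14 at 4.96 and 3.25 CPM, and the fibroblast collagens COL1A1 at 9.59 and 12.7 CPM and COL1A2 at 6.82 and 6.06 CPM. Summed levels of the fibroblast list were 18.2 and 21.5 CPM, of the leukocyte list 28.2 and 23.9 CPM, and of the squamous list 4640 and 3983 CPM.

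In the library labelled HIPK2 shRNA the survival genes BCL2L1, MCL1 and BCL2A1 and the BH3-only genes BIK, BCL2L11 and BID were lower by more than counting error. The effectors BAX and BAK1 and the BH3-only gene BBC3 differed by less than 10% in CPM. Of these only BAK1 was lower by more than counting error, at a ratio of 0.945 (0.905 to 0.988). PMAIP1 lay between, with an interval that includes no difference. All 10 genes were expressed, meaning 1 CPM or more in at least 1 library. On the log2 scale of (CPM + 1), 9 of the 10 had a ratio below 0, as did 5904 of the 11813 expressed genes, and the number was 8 in TPM and 10 with DESeq2 size factors. Past 2-fold here means a log2 ratio beyond 1 in size, which sorts genes by size and tests nothing. In that sense BCL2A1 and BIK, 2 of the 10, were lower, against 2.87% of expressed genes, and 0 of the 10 were higher, against 3.26% (6.13% in either direction). BIK, close to the limit, dropped below it in TPM and with scaling by total count or by the upper quartile, which leaves BCL2A1, and with a pseudocount of 5 CPM neither gene passed. At 1.5-fold, MCL1 and BCL2L11 joined them, which makes 4 of 10 lower against 9.96%, and again 0 were higher against 10.6%. BCL2L1 lay just outside the 1.5-fold rule, with a log2 ratio of -0.58. It joined with DESeq2 size factors or a pseudocount of 0.1 CPM, which makes 5. In TPM the number lower at 1.5-fold was 2 (BCL2A1 and BIK), and with a pseudocount of 5 CPM it was also 2 (BIK and MCL1). The median log2 ratio of the 10 genes was -0.50, and that of all expressed genes was 0.00023. In TPM these medians were -0.29 and 0.071.

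**Figure D1:**
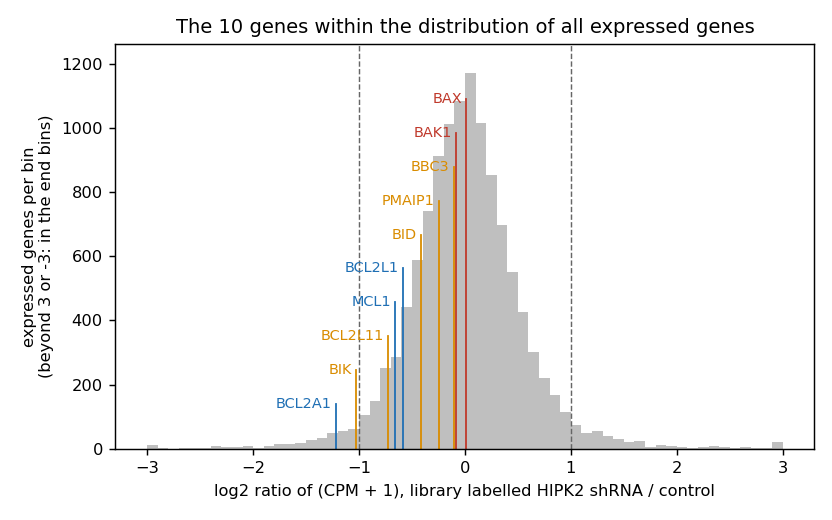
Histogram of the log2 ratio of (CPM + 1), library labelled HIPK2 shRNA over control, for 11813 expressed genes (bins of 0.1, y axis: genes per bin, values beyond 3 or -3 in the end bins), with a coloured line for each of the 10 genes (blue anti-apoptotic, red effector, orange BH3-only; line height only separates the names) and dashed lines at 2-fold. BCL2A1 and BIK lie left of -1, and BAX and BAK1 lie near 0.

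Transcript length moved with the ratio across all genes, and most of the family is short. The length that the authors' counts and FPKM imply was under 3000 bases in the control for 9 of the 10 genes, all but MCL1 at 4700. The median log2 ratio was -0.14 for the 1512 expressed genes under 1500 bases and -0.087 for the 3937 genes from 1500 to 3000 bases. It was 0.035 for the 4375 genes from 3000 to 6000 bases and 0.22 for the 1947 longer genes. At 1.5-fold, 14.7% of the shortest class and 12.1% of the next class were lower, against 4.73% of the longest. The part of length in the values of the 10 genes was not tested.

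Of the survival genes, BCL2L1 was the most abundant and MCL1 and BCL2A1 followed, and each was lower in the library labelled HIPK2 shRNA. BCL2L1 (ENSG00000171552, chromosome 20, 31664452 to 31723989, minus strand), the gene of BCL-XL, had 4641 and 3050 counts, or 169 and 113 CPM. That is 1.501-fold lower (1.43 to 1.57), and in TPM it went from 101.8 to 76.5, or 1.33-fold lower. An antisense gene, ABALON, overlaps 1424 bases of its exons, and reads of the pair cannot be told apart if counting ignored strand.

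MCL1 (ENSG00000143384, chromosome 1, 150574551 to 150579738, minus strand) encodes a survival protein known for its short life. It had 2075 and 1287 counts, or 75.6 and 47.6 CPM. That is 1.59-fold lower (1.48 to 1.71), with 26.9 and 19.0 TPM, or 1.42-fold lower. The counting intervals of the BCL2L1 and MCL1 ratios overlap, so the order between these genes was not resolved at this depth.

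BCL2A1 (ENSG00000140379, chromosome 15, 79960889 to 79971446, minus strand), a survival gene best known from blood cells and from NF-kB signalling, had the lowest ratio of the 10 and also the lowest level. Its 67 and 13 counts came to 2.44 and 0.480 CPM. Its CPM was 5.08-fold lower (2.78 to 10.0), and in TPM the gene went from 3.24 to 0.667, or 4.85-fold lower. Its log2 ratio of -1.22 depends on the pseudocount, at -2.13 with 0.1 CPM and -0.44 with 5 CPM in place of 1. At this level the gene supplied 2.46% of the summed TPM of the survival genes in the control and 0.694% of it in the library labelled HIPK2 shRNA. Of the leukocyte markers, PTPRC and CD3E had 0 counts in both libraries and LYZ had 4 and 0, while CD14 had 136 and 88 and CD68 had 634 and 558. The part of such cells in the value of BCL2A1 was not tested.

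The effectors were nearly even between the libraries. BAX (ENSG00000087088, chromosome 19, 48954877 to 48961798, plus strand) had 3493 and 3471 counts, or 127 and 128 CPM, a ratio of 1.01 (0.961 to 1.06). BAK1 (ENSG00000030110, chromosome 6, 33572547 to 33580293, minus strand) had 4152 and 3872 counts, or 151 and 143 CPM, a ratio of 0.945 (0.905 to 0.988). In TPM, BAX went from 176 to 195.5 and BAK1 from 99.1 to 100.5, ratios of 1.11 and 1.01. The sign of such small differences followed the scaling: the log2 ratio of BAX was 0.011 and became -0.0014 with DESeq2 size factors, and that of BAK1 was -0.080 and became 0.019 in TPM. BAK1 has processed pseudogenes (BAK1P1 and BAK1P2) with which it could share reads, so its level is uncertain to that extent, and 91 bases of its exons overlap GGNBP1 on the other strand.

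Among the BH3-only genes, BIK had the lowest ratio and BBC3 the ratio nearest to 1. The intervals of BIK and BCL2L11 overlap, as do those of BBC3 and PMAIP1, so the order within either pair was not resolved at this depth. BIK (ENSG00000100290, chromosome 22, 43110748 to 43129712, plus strand), whose protein sits mainly at the endoplasmic reticulum and binds survival proteins, had 1894 and 901 counts. Its level was 69.0 and 33.3 CPM, 2.07-fold lower (1.91 to 2.25), so that the interval itself spans 2-fold. In TPM it went from 101.6 to 52.5, or 1.93-fold lower, which is just short of the size rule. BIK has a single annotated transcript and the implied length hardly differed between the libraries (1136 and 1131 bases), and no annotated exon of another gene overlaps it.

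BID (ENSG00000015475, chromosome 22, 17734138 to 17774665, minus strand) links death receptors to mitochondria, since its protein is cut by the caspase those receptors activate. It had 4130 and 3055 counts, or 151 and 113 CPM, 1.33-fold lower (1.27 to 1.40), and 106.6 and 88.3 TPM, 1.21-fold lower. BCL2L11 (ENSG00000153094, chromosome 2, 111119378 to 111168447, plus strand), the gene of BIM, which ERK signalling is known to hold down, had 252 and 140 counts, or 9.19 and 5.17 CPM. That is 1.78-fold lower (1.44 to 2.20), while its TPM went from 7.32 to 5.66, only 1.29-fold lower. Of the 10 genes, BCL2L11 had the widest gap between count and TPM: its implied transcript length went from 2097 to 1631 bases, a ratio of 0.778, where the middle 90% of 9569 well-counted genes lay from 0.809 to 1.23. BIM is annotated with 25 transcripts, and a long non-coding gene on the other strand (MIR4435-2HG) overlaps 727 bases of its exons, so the size of its difference is less certain than its counting interval shows.

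The damage-induced BH3-only genes BBC3 and PMAIP1 did not pass either size rule. BBC3 (ENSG00000105327, chromosome 19, 47220824 to 47232766, minus strand) had 502 and 458 counts, or 18.3 and 16.9 CPM, a ratio of 0.925 (0.813 to 1.05). PMAIP1 (ENSG00000141682, chromosome 18, 59899948 to 59904306, plus strand) had 209 and 170 counts, or 7.62 and 6.28 CPM, a ratio of 0.825 (0.669 to 1.01). Exons of BBC3 also contain the microRNA genes MIR3191, on the same strand, and MIR3190, on the other, over 76 and 80 bases. The intervals of BBC3 and PMAIP1 include 1, so a difference of either gene was not detectable at this depth.

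**Figure D2:**
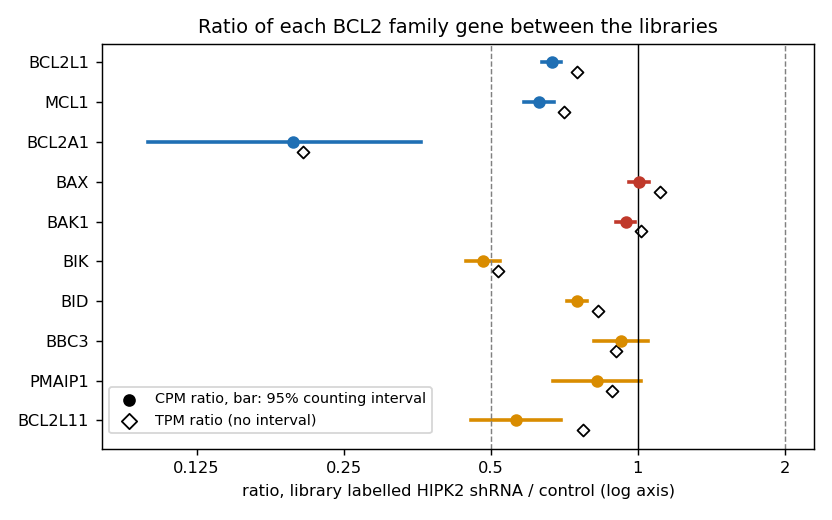
Ratio of each gene, library labelled HIPK2 shRNA over control, on a log axis: filled points are CPM ratios with their 95% counting intervals as bars, open diamonds are ratios of the authors' TPM, and dashed lines mark 2-fold (blue anti-apoptotic, red effector, orange BH3-only). BCL2A1 lies at 0.197 with the widest bar, BIK at 0.482 and BAX at 1.01. The diamond of BCL2L11, at 0.774, lies outside its bar, as do those of BCL2L1, MCL1, BID, BAX and BAK1.

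Levels of different genes were compared per length, in the authors' TPM, with counting intervals carried over to that scale. In the control BAX led at 176 TPM (171 to 182). BID, BCL2L1, BIK and BAK1 followed within a narrow span, from 106.6 down to 99.1 TPM, and each of these overlapped the next in its interval. MCL1 (26.9), BBC3 (15.9), BCL2L11 (7.32), PMAIP1 (5.46) and BCL2A1 (3.24) came after, each below its neighbour by more than counting error. In the library labelled HIPK2 shRNA the narrow group came apart, in the order BAX at 195.5 TPM, BAK1 at 100.5, BID at 88.3, BCL2L1 at 76.5 and BIK at 52.5. There only BCL2L11 and PMAIP1, at 5.66 and 4.82 TPM, overlapped as neighbours. BAK1 went from rank 5 to rank 2 with almost the same TPM, as BID, BCL2L1 and BIK had lower values there.

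**Figure D3:**
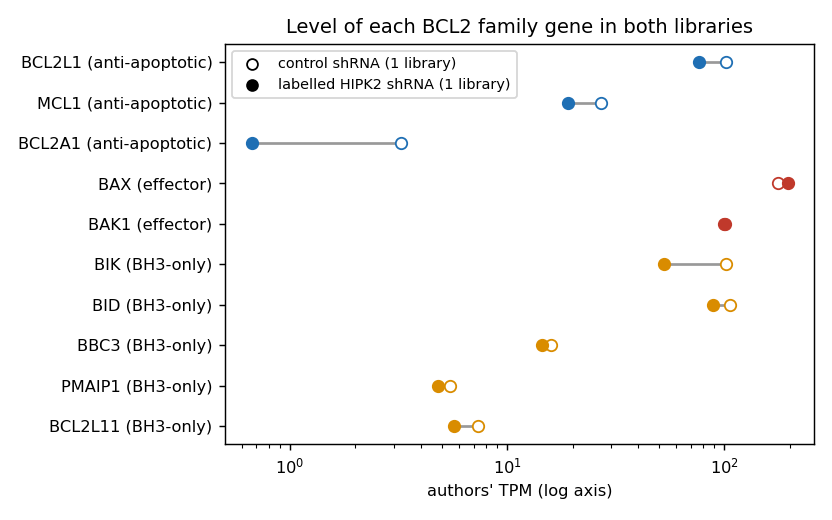
TPM of each gene in both libraries on a log axis, open circles for the control and filled circles for the library labelled HIPK2 shRNA (1 library each; blue anti-apoptotic, red effector, orange BH3-only). Around 100 TPM in the control lie BID, BCL2L1, BIK and BAK1, and in the other library BIK lies at 52.5 and BAK1 at 100.5.

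Summed by role over these 10 genes only, the survival genes and the BH3-only genes were lower by similar factors and the effectors were not. The survival genes summed to 132 TPM in the control and 96.2 TPM in the library labelled HIPK2 shRNA, a ratio of 0.729. The BH3-only genes summed to 237 and 166 TPM, a ratio of 0.700, and BIK gave most of the difference. The effectors summed to 276 and 296 TPM, a ratio of 1.07. Effectors therefore made up 42.8% of the summed TPM of the 10 genes in the control and 53.0% in the library labelled HIPK2 shRNA, and survival genes 20.5% and 17.2%. Within the BH3-only class the share of BIK went from 42.9% to 31.7% and that of BID from 45.0% to 53.3%. Genes of the same roles outside the 10 are not in these sums and shares. Among them, the effector relative BOK went from 85.4 to 41.1 TPM and the BH3-only gene BAD from 439 to 412 TPM. The BH3-only gene BMF was higher, from 1.55 to 2.60 TPM, at a CPM ratio of 1.42 (1.14 to 1.78).

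**Figure D4:**
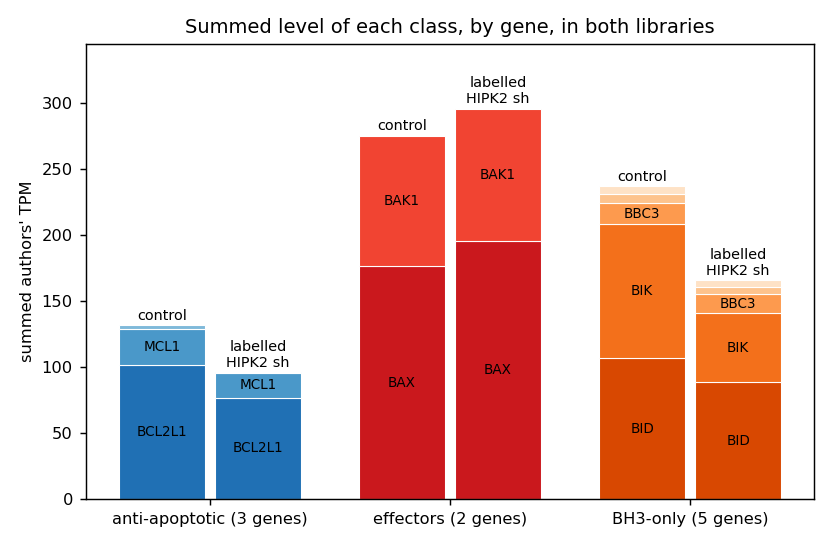
Summed TPM of each class in both libraries (left bar control, right bar the library labelled HIPK2 shRNA), stacked by gene; segments under 14 TPM carry no name. The survival bars reach 132 and 96.2, the effector bars 276 and 296, and the BH3-only bars 237 and 166.

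Ratios between members within a library do not depend on how the libraries are scaled to each other. There were 8 such pairs compared, each of BAX, BAK1, BIK and BID with BCL2L1 and MCL1. BAX stood at 1.73 times BCL2L1 in TPM in the control and at 2.55 times in the library labelled HIPK2 shRNA. The corresponding count ratio grew by a factor of 1.51 (1.42 to 1.61). Against MCL1, BAX stood at 6.56 and 10.3 times in TPM, and the count ratio grew by a factor of 1.60 (1.47 to 1.74). For BAK1 the factors were 1.42 (1.33 to 1.51) against BCL2L1 and 1.504 (1.38 to 1.63) against MCL1. Both effectors were thus higher relative to both main survival genes by more than counting error.

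Of the BH3-only genes compared, BIK went the other way and BID went with the effectors by a smaller factor. BIK was lower relative to the survival genes, from 0.999 to 0.687 times BCL2L1 in TPM, with a count factor of 0.724 (0.661 to 0.793). Against MCL1 the factor of BIK was 0.767 (0.690 to 0.852). The factors of BID were 1.13 (1.05 to 1.20) against BCL2L1 and 1.19 (1.10 to 1.30) against MCL1, beyond counting error in the same direction as BAX and BAK1. No spread between cultures enters any of these intervals.

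Of the 13 other BCL2 family genes, 9 were expressed, with 4 ratios above and 5 below 0 and a median log2 ratio of -0.089. Over all 11813 expressed genes, 5909 lay above and 5904 below 0. Past 2-fold lower were BCL2L2 and BOK, 2 of the 9, against 2.87% of all expressed genes, and 0 were past 2-fold higher, against 3.26%. BOK, an effector relative of BAX and BAK1, had 4451 and 1972 counts, 2.23-fold lower (2.11 to 2.35), and 85.4 and 41.1 TPM. It thus went apart from BAX and BAK1. The survival gene BCL2L2 had 736 and 26 counts, but it shares 813 exon bases with the read-through gene BCL2L2-PABPN1, which went from 54 to 117 counts, and its implied length went from 3862 to 934 bases. The count of BCL2L2 is therefore uncertain: summed with the read-through gene it was 790 and 143. BNIP3L, a mitophagy receptor, had the highest ratio of the list, 1.63 (1.40 to 1.89). BCL2 itself, the founding survival gene, had only 31 and 34 counts, and BCL2L10, BCL2L14, BCL2L15 and HRK had 0 counts in both libraries. BAD, a BH3-only gene outside the 10, was the most abundant of the list at 439 and 412 TPM.

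Downstream of the mitochondria, 14 of 15 expressed genes had log2 ratios below 0 (median -0.26), as did 5904 of 11813 over the whole table. None, 0 of 15, passed 2-fold in either direction, against 6.13% of all expressed genes, and 3 were past 1.5-fold lower, against 9.96%. Those 3 were VDAC3, a channel of the outer membrane, at a ratio of 0.631 (0.581 to 0.686), DFFB, the nuclease that cuts DNA in apoptosis, at 0.620 (0.507 to 0.756), and CASP6, an executioner caspase, at 0.615 (0.483 to 0.780). CYCS, the gene of cytochrome c, differed little, at 179 and 173 CPM. CYCS has many processed pseudogenes and VDAC3 has VDAC3P1. Either gene could share reads with these copies, so its level is uncertain to that extent. CASP9, the caspase of the apoptosome, was the 1 gene above 0, at a ratio of 1.31 (1.16 to 1.48).

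The inhibitor of apoptosis genes, several of which block caspases, were higher or even. Of 5 expressed, 0 passed 2-fold, against 6.13% of all expressed genes in either direction. At 1.5-fold, 2 (XIAP and BIRC2) were higher, against 10.6%, and the list had a median log2 ratio of 0.55. XIAP was at a ratio of 1.90 (1.47 to 2.48), from 91 to 171 counts, BIRC2 at 1.83 (1.51 to 2.24) and BIRC6 at 1.52 (1.28 to 1.80). Their implied lengths in the control were 10304, 3624 and 18714 bases. Over the whole table, genes of over 6000 bases had a median log2 ratio of 0.22. Genes from 3000 to 6000 bases, the class of BIRC2, had one of 0.035. BIRC3 and BIRC5 (survivin) were even, at ratios of 1.01 (0.789 to 1.28) and 0.987 (0.935 to 1.04). The implied length of BIRC3 in the control, 6266 bases, was also over 6000.

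Of 11 transcription factors known to activate BH3-only genes, 8 lay above 0 (median 0.083), as did 5909 of the 11813 expressed genes. Past 2-fold, 1 of the 11 was higher, against 3.26% of expressed genes, and 0 were lower, against 2.87%. The gene past 2-fold was TP73 with 406 and 1012 counts and a ratio of 2.53 (2.25 to 2.84). TP73 and TP63 are each annotated with 14 transcripts. A count per gene does not tell these apart, so which forms were present is not known here. ATF3 had a ratio of 1.63 (1.37 to 1.94) and JUN, which is known to act on BCL2L11, one of 0.667 (0.621 to 0.715). FOXO3, a known activator of BCL2L11, was at a ratio of 1.23 (1.08 to 1.41). The genes below 0 were JUN, DDIT3 at a ratio of 0.673 (0.586 to 0.771) and ATF4 at 0.692 (0.673 to 0.712).

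Of 8 factors known to activate survival genes, 5 lay above 0 (median 0.069), as did 5909 of the 11813 expressed genes. None, 0 of 8, passed 2-fold, against 6.13% of expressed genes in either direction. REL had the highest ratio, 2.53 (1.72 to 3.80), but from 38 counts. With the pseudocount of 1 CPM the log2 ratio of REL was 0.92, short of the 2-fold rule. Its implied length in the control was 13637 bases, in the longest class. RELB followed at a ratio of 1.35 (1.27 to 1.43). NFKB1 was at 0.716 (0.663 to 0.773) and RELA, the main activating subunit, at 0.840 (0.811 to 0.869). Of 11 kinases and ubiquitin enzymes that act on MCL1 or BIM protein, 6 lay above 0 (median 0.11). Past 2-fold were 0 of the 11, against the same 6.13%. USP9X, which spares MCL1 from breakdown, was at 1.66 (1.44 to 1.91), and MARCH5, a mitochondrial ubiquitin ligase, at 0.628 (0.557 to 0.707). HUWE1, a ligase that marks MCL1 for breakdown, was at 1.57 (1.51 to 1.63) in CPM but at 0.908 in TPM, so its direction depends on the unit.

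**Figure D5:**
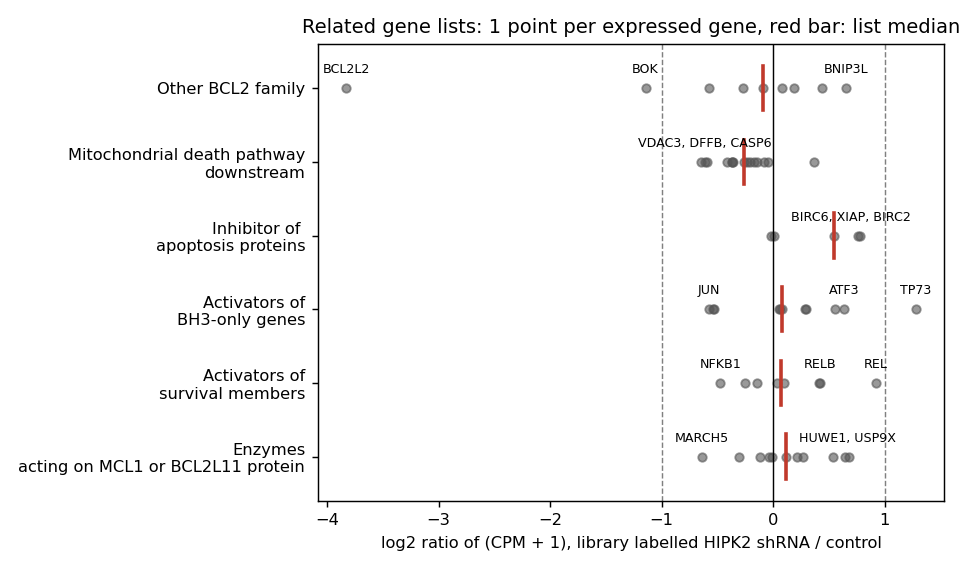
Log2 ratio of (CPM + 1), library labelled HIPK2 shRNA over control, for each expressed gene of 6 related lists (grey points), with the list median as a red bar and dashed lines at 2-fold; up to 3 genes with the largest difference are named per list. BCL2L2, BOK and TP73 lie beyond 2-fold, and the inhibitor of apoptosis genes have the highest median, 0.55.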

How the data were processed

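RNA sequencing was done on total RNA of 1 control and 1 HIPK2 shRNA culture (paired-end Illumina reads, per the labels' protocols). Reads were aligned to GRCh38 with TopHat2 2.1.1, per the submitters' processing notes; how reads were counted, and with what strand setting, was not given in the sources used here. Per the file headers, the authors deposited a count, a TPM and an FPKM per gene. The deposited counts are raw, and the deposited FPKM, proportional to TPM within a library, was used only for the implied transcript length (count over FPKM, per total count).

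Counts were scaled to CPM with TMM factors (0.977 and 1.02) from edgeR 4.0.16; with 1 library per group no test was run. The log2 ratio uses a pseudocount of 1 CPM, which understates low genes. Ratio intervals are Clopper-Pearson intervals conditional on the summed count, and level intervals are exact Poisson. Intervals of ratios between members use a normal approximation on the log odds ratio of the counts (scipy 1.17.1). All these intervals cover counting error only: without molecular identifiers, reads are not separate molecules. The limit for a gene at 0 was set at 3 counts. Overlaps and coding sequences come from GENCODE 29 (the best APPRIS transcript, then the longest), and 27 symbols turned into dates were restored by gene ID where known. The rule named all 10 genes, HIPK2 and up to 3 expressed genes per list, those of largest absolute log2 ratio; other listed genes were named after their values were seen. Some listed genes are not reported here. The members and lists were chosen with earlier results of these data known.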

Additional observations from a re-analysis of the deposited data

How the results depend on the processing

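No paired analysis was possible because there is 1 library in each group, and for that reason no replicate was left out. Summing counts over same-strand neighbours was not run, because no gene of the tables shares same-strand exons with any of the 10 members. The 2 members past 2-fold lower, BCL2A1 and BIK, became 1 with scaling by total count, with upper-quartile scaling and in TPM (BCL2A1 in each), 1 with a filter at 10 CPM (BIK), 0 with a pseudocount of 5, 4 at 1.5-fold and 0 at 4-fold; they stayed at 2 with a pseudocount of 0.1, DESeq2 size factors and no filter. No setting tried put a member past 2-fold higher. Over all genes, 385 higher and 339 lower turned into 676 and 515 (pseudocount 0.1), 124 and 161 (pseudocount 5), 159 and 217 with a filter at 10 CPM, 1254 and 1176 at 1.5-fold, and 62 and 48 at 4-fold. The median log2 ratio of the members, -0.50, was -0.29 in TPM and from -0.51 to -0.42 under the other settings; members below 0 numbered 8 in TPM and 10 with DESeq2 size factors. Of 60 member values under other settings, 47 stayed within their counting interval and 13 did not, 6 of these in TPM. The cause was not tested, apart from genes lost to a filter. The 4 members lower at 1.5-fold numbered from 2 to 5 under the settings that rescale the values, a check added after seeing the data. Depth limits BCL2A1 most: with 13 counts in 1 library its interval spans 2.78-fold to 10.0-fold.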
